A study of Mus musculus with 22 samples.

Results

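The mRNAs of the neurotrophins brain-derived neurotrophic factor (Bdnf) and neurotrophin-3 (Ntf3), of the Trk receptor genes Ntrk2 and Ntrk3, of the p75 receptor Ngfr and of the sorting receptor Sort1 were described across 6 cell types of the mouse brain. The 6 genes were taken by symbol, and their 48 annotated transcripts are part of 142552 transcripts of 55385 genes in the tables. mRNA was measured with RiboTag, in which Cre recombinase switches on an HA-tagged ribosomal protein L22 in chosen cells and the RNA bound to tagged ribosomes is pulled down with anti-HA beads. All mice were Rpl22 Fl/+, carried 1 Cre allele inherited from the father, and were 6 weeks old. No drug or mutation was compared, so the question is how mRNA levels differ between cell types.

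Dentate gyrus granule cells (hippocampus) and layer V cortical neurons (cortex) both came from Rbp4-Cre mice and were separated by dissection alone. Cerebellar granule cells came from the cerebellum of Gabra6-Cre mice. Inhibitory interneurons came from the hippocampus of Dlx6a-Cre mice, with 2 mice pooled per replicate. Cortical astrocytes, labelled Aldh1-cre and driven by an inducible Aldh1l1 transgene, and cortical microglia from Tmem119-cre mice were tagged after oral tamoxifen, which the other 4 cell types did not receive. Each cell type had 3 replicates, with both sexes among them by the labels, in interneurons partly as mixed pools. Of these 18 replicates, 4 were sequenced in 2 batches, which gives 22 libraries, and batch 1 was used for those 4. All interneuron and microglia libraries were from batch 2, so that batch and cell type cannot be told apart for them within the 18 libraries. Total estimated counts were between 38270477 and 71440915 in these 18 libraries. The 4 dentate gyrus markers, 4 cerebellar granule cell markers, 7 interneuron markers, 6 astrocyte markers and 6 microglia markers each had their highest summed level in their own cell type. The layer V list did not. Its mean sum was 247 TPM (read count scaled by transcript length and library total) in layer V neurons, 257 in dentate gyrus and 728 in cerebellar granule cells. Etv1 was highest in the cerebellar libraries, at 728 TPM on average. Bcl11b was highest in dentate gyrus granule cells (160 against 34.3 in layer V neurons) and Parm1 in interneurons (72.6 against 45.0). Only Fezf2 of that list was highest in layer V neurons, at 85.5 TPM. A list of 4 markers of other hippocampal pyramidal cells had its highest mean sum in the dentate gyrus libraries, which overlapped layer V neurons. Of these markers, Wfs1 (71.8 TPM) and Fibcd1 (44.5) were highest in dentate gyrus, while Bok and Kcnq5 were highest in layer V neurons. The part of RNA from other hippocampal pyramidal cells in the dentate gyrus values was not tested. In 1 of the 22 libraries, not among the 18, sex-linked mRNA went against the label.

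Neurotrophins are secreted growth factors that are made as longer precursors and cut to their mature form. BDNF binds the receptor tyrosine kinase TrkB, the product of Ntrk2, and neurotrophin-3 binds TrkC, the product of Ntrk3. Both receptor genes also make truncated forms by alternative splicing, which keep the ligand-binding part and the membrane anchor but lack the kinase domain. The precursors bind p75 together with sortilin, and sortilin also sorts BDNF inside the cell. In the brain this system is known for its roles in neuronal survival, dendrite growth and synaptic plasticity.

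The sequences at which full-length and truncated receptor mRNAs part are shown because the largest difference found among the 6 genes is the choice between them. The first 30 bases of each line (lower case) lie in the last coding exon that both forms share, and capitals mark what follows in the named transcript. In Ntrk2-202, the transcript for the truncated receptor known as TrkB.T1, capitals run through the stop codon. They begin at chr13:58932023-58932057 (GRCm38, plus strand). The capitals of the full-length Ntrk2-201 are its next 60 coding bases, in the exon at chr13:58985802-58985990.
Ntrk2-202: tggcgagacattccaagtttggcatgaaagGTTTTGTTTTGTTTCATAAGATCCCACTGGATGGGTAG
Ntrk2-201: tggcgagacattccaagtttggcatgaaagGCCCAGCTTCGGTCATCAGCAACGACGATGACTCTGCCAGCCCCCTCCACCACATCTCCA
The truncated Ntrk2-202 thus had 38 bases of its own up to the end of the stop codon. Its annotated coding sequence, without the stop codon, was 1428 bases long against 2463 bases in Ntrk2-201.

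Ntrk3 lies on the minus strand. The own coding end of the truncated Ntrk3-202 was 254 bases long with its stop codon and started at chr7:78304292-78304426, and the full-length Ntrk3-201 went on at chr7:78260284-78260414. A further full-length transcript, Ntrk3-205, holds an additional exon of 42 bases at chr7:78204103-78204144, known as a kinase insert, which is shown in capitals between 30 bases of each neighbouring exon.
Ntrk3-202: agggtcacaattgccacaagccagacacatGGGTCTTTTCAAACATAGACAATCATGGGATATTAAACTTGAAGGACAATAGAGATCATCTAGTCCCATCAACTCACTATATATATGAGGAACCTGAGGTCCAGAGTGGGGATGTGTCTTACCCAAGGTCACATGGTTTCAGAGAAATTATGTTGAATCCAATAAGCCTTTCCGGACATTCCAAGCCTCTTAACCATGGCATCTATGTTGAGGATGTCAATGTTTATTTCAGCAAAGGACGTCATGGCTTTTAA
Ntrk3-201: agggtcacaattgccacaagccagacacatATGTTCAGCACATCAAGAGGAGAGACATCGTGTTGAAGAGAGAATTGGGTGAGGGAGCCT
Ntrk3-205: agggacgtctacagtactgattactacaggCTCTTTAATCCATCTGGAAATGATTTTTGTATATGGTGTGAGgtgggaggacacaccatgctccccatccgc
The coding sequence was 1836 bases long in Ntrk3-202, 2475 in Ntrk3-201 and 2517 in Ntrk3-205.

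Gene levels were set side by side as TPM, which is scaled by transcript length. Each cell type was tested against the mean of the other 5 on the log2 scale with edgeR's quasi-likelihood test on estimated counts, and a gene was called at a Benjamini-Hochberg adjusted p of at most 0.05 over the 20524 genes tested. All 6 members were among them, and of the 36 comparisons 17 were called higher, 16 lower and 3 were not called. The background was also high: 66.7% of all genes tested were called in dentate gyrus granule cells, 73.2% in layer V neurons, 82.0% in cerebellar granule cells, 67.3% in interneurons, 73.2% in astrocytes and 81.0% in microglia. The description therefore rests on the sizes and the order of the levels. Dentate gyrus granule cells had 4 members called higher (Bdnf, Ntf3, Ntrk3 and Sort1), and for each of them all 3 libraries were above the other 15, which held in either direction for 10.3% of all genes. Of all genes 35.3% were called higher and 31.4% lower there, and Ntrk2 was the 1 member called lower. Layer V neurons had 3 members higher and 3 lower, where 37.8% of all genes were higher and 35.4% lower, and no member had all 3 libraries outside the range of the other 15, as 13.6% of all genes did. Cerebellar granule cells also had 3 higher and 3 lower, where 36% and 46.1% of all genes were. Interneurons had 4 higher and 2 lower, against 35.1% and 32.2% of all genes. Astrocytes had 2 higher and 3 lower, against 40.2% and 33.0%, and microglia had 1 higher and 4 lower, against 43.4% and 37.6%. In microglia Ntf3 and Ntrk2 were below the other 15 in all 3 libraries, and 34.4% of all genes were outside the range of the other 15 there. Nothing separates a smaller share of tagged cells with a given mRNA from less of that mRNA per cell in such pooled material.

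**Figure D1:**
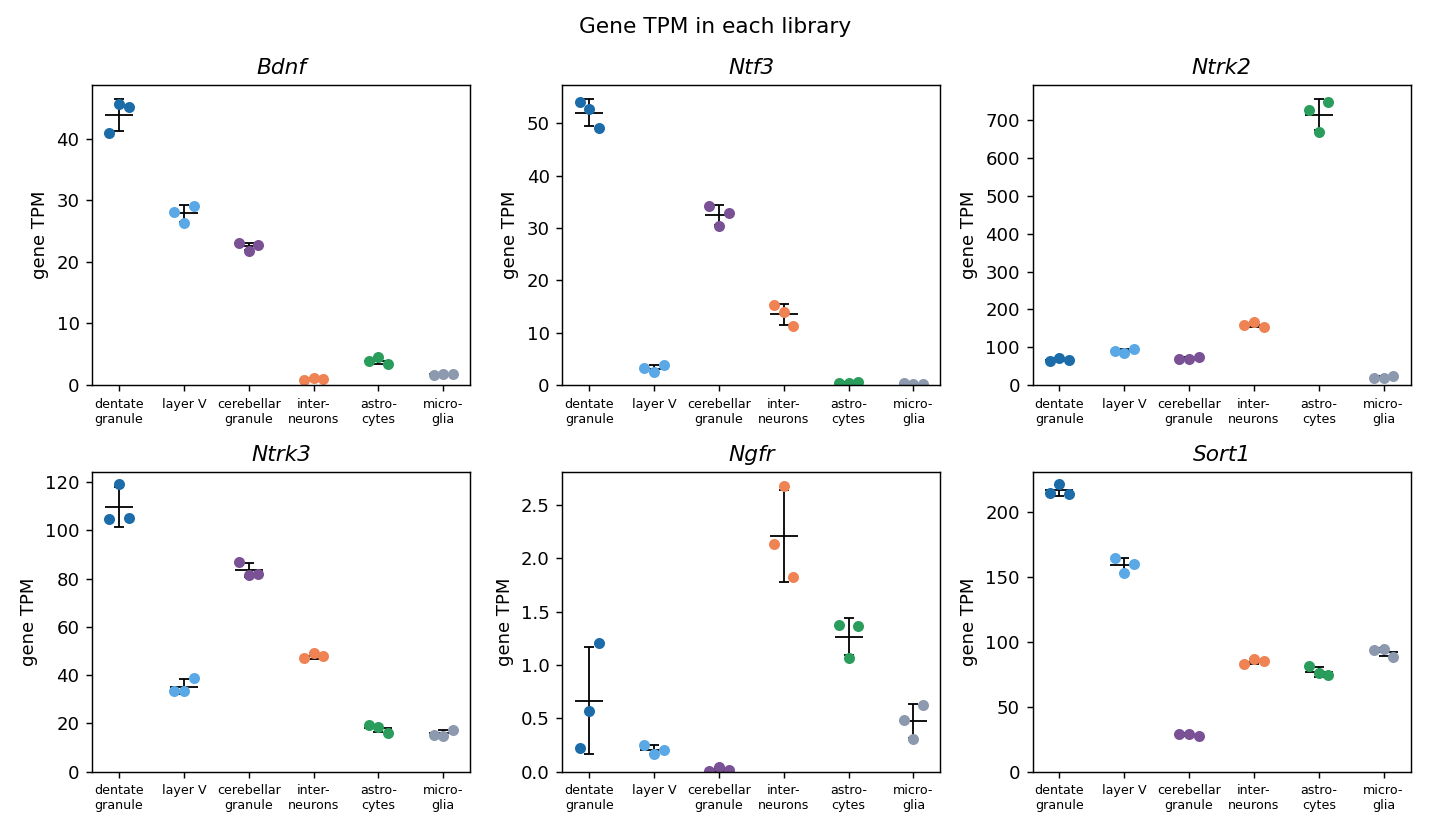
TPM of the 6 genes (y axis, linear, from 0) in the 6 cell types (x axis), with 1 point per replicate library, a line at the mean of 3 and error bars for the SD. Ntrk2 in the astrocyte libraries lies at 668.3 to 748.4 TPM, above all other libraries, and Bdnf, Ntf3, Ntrk3 and Sort1 have their highest points in dentate gyrus granule cells.

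Bdnf mRNA was high in the 3 excitatory cell types and lowest in interneurons. Its level was 40.9, 45.6 and 45.0 TPM in the dentate gyrus libraries, 28.1, 26.4 and 29.1 in layer V neurons and 23.0, 21.8 and 22.7 in cerebellar granule cells. It was 3.90, 4.48 and 3.38 TPM in astrocytes, 1.70, 1.76 and 1.86 in microglia and 0.842, 1.19 and 0.928 in interneurons. The libraries of no 2 cell types overlapped. The share of all genes with no such overlap was not counted, here or for Ntf3 below. The log2 difference from the other 5 cell types was 2.90 in dentate gyrus granule cells (SE 0.05, edgeR adjusted p = 2.0e-18), 2.41 in layer V neurons and 1.78 in cerebellar granule cells. It was -3.79 in interneurons (SE 0.09, edgeR adjusted p = 1.1e-16), whose libraries were all below the other 15, as was the case in either direction for 11.1% of all genes. Within batch 2 the interneuron difference was -3.82. All 5 neighbouring pairs in the order of levels were called, the closest being dentate gyrus over layer V at a log2 difference of 0.41 (SE 0.07, edgeR adjusted p = 9.2e-05). Between cell types that were neighbours for at least 1 member, many genes were called. Of all genes, the test called 63.4% between dentate gyrus and layer V, 73.9% between both granule cell types, 76.1% between layer V and cerebellum, 60.7% between layer V neurons and interneurons and 75.2% between cerebellar granule cells and interneurons. Of all genes it called 74.2% between dentate gyrus and astrocytes, 77.2% between layer V neurons and astrocytes, 82.7% between cerebellum and astrocytes and 73.2% between interneurons and astrocytes. For microglia it was 79.8% with dentate gyrus, 83.2% with layer V neurons, 80.8% with interneurons and 76.1% with astrocytes.

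Bdnf transcripts begin at alternative first exons, numbered I to VIII in genome order, each with its own promoter and all spliced to the same coding exon. The first exon in use differed between the excitatory cell types. Transcripts from exon VI held 75.5% ± 3.74 (SD, n = 3) of Bdnf TPM in dentate gyrus granule cells, 45.1% ± 4.60 in cerebellar granule cells and 27.6% ± 4.11 in layer V neurons. Those from exon IV, the promoter best known for its response to neuronal activity, held 38.3% ± 4.72 in layer V neurons, 26.9% ± 7.58 in the cerebellum and 11.3% ± 3.15 in the dentate gyrus. In TPM, exon VI reached 32.1 to 35.0 in the dentate gyrus libraries against 6.66 to 8.26 in layer V neurons, while exon IV reached 3.67 to 6.69 and 9.42 to 12.7. Dentate gyrus and layer V libraries did not overlap for either exon, and the dentate gyrus surplus of Bdnf over layer V neurons lay in exon VI transcripts.

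Exon I held 16.1% ± 2.76 of Bdnf TPM in layer V neurons, 6.07% ± 1.16 in dentate gyrus granule cells and 0.562% ± 0.705 in cerebellar granule cells, where 0.0 to 0.311 TPM were assigned to it. Exon II held 16.8% ± 2.80, 6.22% ± 2.05 and 22.6% ± 2.36 in the same order. Cerebellar granule cells thus stood apart by having exon II without exon I, although both exons lie next to each other on chromosome 2. The remaining first exons held at most 4.42% in any of the 3 cell types. These shares are descriptions without a test. Transcripts of Bdnf differ only in short 5′ exons, so few reads tell them apart, and no shares are read from interneurons or microglia, where the whole gene was below 2 TPM.

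The 250 bases before exon I and before exon IV are shown because, of the 3 excitatory cell types, layer V neurons had the highest share of both exons. They were searched on both strands for TGACG, the core of the cAMP response element bound by CREB, and matches are in capitals. The windows are chr2:109674450-109674699 and chr2:109692186-109692435 (GRCm38.p6, plus strand, from RefSeq).
Bdnf exon I promoter: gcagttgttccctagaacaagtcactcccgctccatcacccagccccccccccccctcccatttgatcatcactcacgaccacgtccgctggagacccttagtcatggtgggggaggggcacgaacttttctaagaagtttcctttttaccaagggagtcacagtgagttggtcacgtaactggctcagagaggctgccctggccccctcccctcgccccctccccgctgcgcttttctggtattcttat
Bdnf exon IV promoter: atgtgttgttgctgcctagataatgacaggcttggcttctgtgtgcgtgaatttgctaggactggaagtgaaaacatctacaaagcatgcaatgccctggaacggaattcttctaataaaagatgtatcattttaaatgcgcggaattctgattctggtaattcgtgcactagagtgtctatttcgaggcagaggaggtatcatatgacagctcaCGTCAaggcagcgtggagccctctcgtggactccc
The window before exon IV held 1 match, on the minus strand, and the window before exon I held none. Of all 32851 promoters in the table, 17.8% held the letters in the same 250 bases. The table had 7 Bdnf starts, of which 6 matched an annotated first exon. The start of exon VI was not among them, so the promoter behind most dentate gyrus Bdnf transcripts is not shown.

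Ntf3, the ligand of TrkC, was highest in both granule cell types. Its level was 54.1, 52.8 and 49.2 TPM in the dentate gyrus libraries and 34.2, 30.5 and 32.9 in those of the cerebellum. Interneurons followed with 15.3, 14.0 and 11.3 TPM, and layer V neurons were at 3.25, 2.46 and 3.75. The glial libraries were all below 1 TPM, between 0.412 and 0.641 in astrocytes and between 0.153 and 0.344 in microglia. Thus layer V neurons, which were second for Bdnf, held 3.15 ± 0.651 TPM of Ntf3 against 52.0 ± 2.56 in the dentate gyrus, and the libraries of no 2 cell types overlapped. The log2 difference from the other 5 cell types was 4.06 in dentate gyrus granule cells (SE 0.11, edgeR adjusted p = 1.1e-15), 3.28 in cerebellar granule cells and 1.66 in interneurons. It was -4.97 in microglia (SE 0.24, edgeR adjusted p = 9.1e-13). All 5 neighbouring pairs were called, with astrocytes over microglia the least certain at 1.19 (SE 0.36, edgeR adjusted p = 0.0069). A single transcript, Ntf3-203, held 95% of Ntf3 TPM in dentate gyrus granule cells and 98.9% in those of the cerebellum. In layer V neurons the alternative transcript Ntf3-201, whose coding sequence is 774 against 813 bases long, held 26% ± 14.2.

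**Figure D2:**
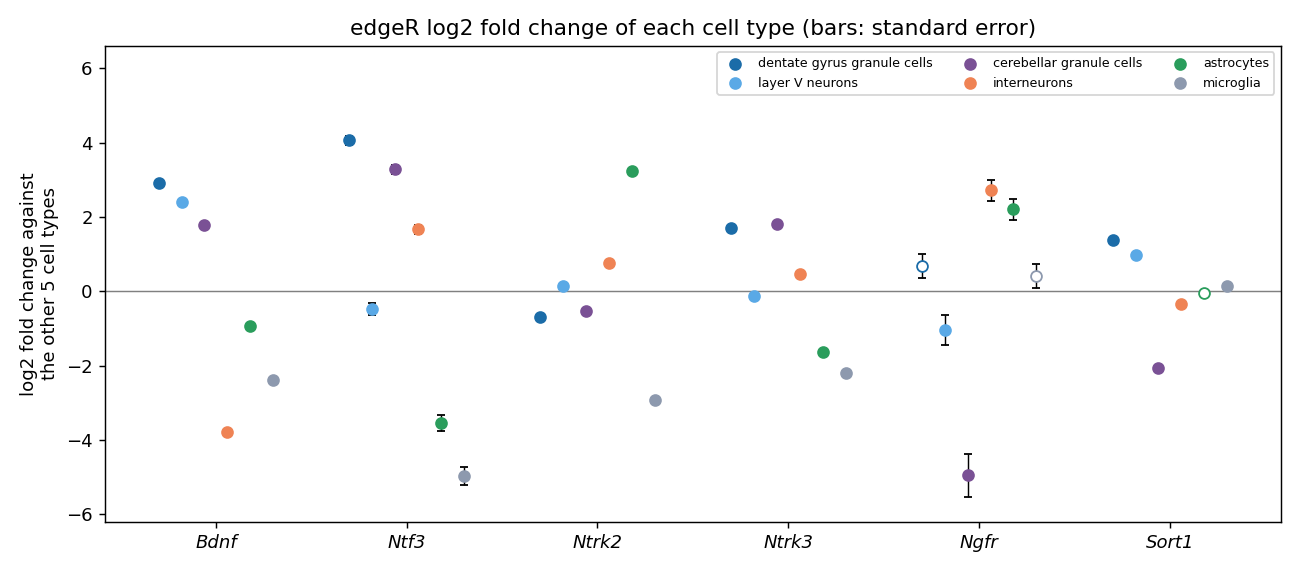
Log2 fold change of each cell type against the mean of the other 5 (y axis) for the 6 genes (x axis), from edgeR on 18 libraries, with bars for the standard error and open circles for differences that were not called. The values run from -4.97 (Ntf3 in microglia) to 4.06 (Ntf3 in dentate gyrus granule cells), and the 3 open circles belong to Ngfr and Sort1.

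Ntrk2 mRNA was by far most abundant in astrocytes. Its level was 728.3, 668.3 and 748.4 TPM there, 159.1, 167.1 and 153.7 in interneurons and 89.9, 86.0 and 94.5 in layer V neurons. It was 69.9, 69.7 and 73.2 TPM in the cerebellar libraries, 64.1, 70.6 and 66.6 in those of the dentate gyrus and 18.2, 19.8 and 23.2 in microglia. Only the cerebellar and dentate granule cells overlapped. The log2 difference of astrocytes from the other 5 cell types was 3.25 (SE 0.04, edgeR adjusted p = 4.5e-21), and all 3 astrocyte libraries were above the other 15, as in either direction for 18.3% of all genes. The difference was 3.06 within batch 1, which lacks interneurons and microglia, and 3.05 within batch 2. Microglia were lowest at -2.92 (SE 0.06, edgeR adjusted p = 4.2e-18). Interneurons exceeded layer V neurons by 0.51 (SE 0.06, edgeR adjusted p = 1.3e-06). The difference between cerebellar and dentate granule cells, 0.15 (SE 0.06, edgeR adjusted p = 0.039), was called but was lost with upper-quartile normalization (0.09, adjusted p = 0.13), with a transcript length offset (0.15, adjusted p = 0.094) and on the TPM scale (0.08, adjusted p = 0.39).

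The ribosome-bound forms of Ntrk2 differed more than its level. Transcripts were classed by their annotated coding length as full (at least 80% of the longest of the gene) or shorter, among those with both untranslated ends annotated, and for Ntrk2 and Ntrk3 the shorter class is the receptor without the kinase. In astrocytes the shorter class held 96.2%, 95.9% and 96.7% of the classed Ntrk2 TPM. In the 4 neuronal types it held 7.78% ± 1.81 (dentate gyrus), 4.24% ± 0.591 (layer V), 4.10% ± 0.969 (cerebellum) and 4.19% ± 0.557 (interneurons). In microglia it held 63.8%, 64.1% and 72.4%. Astrocytes and neurons thus read the same gene almost wholly as opposite forms, with no overlap between their libraries.

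The log2 ratio of the shorter over the full class was higher in astrocytes than in the mean of the 4 neuronal types by 8.82 (SE 0.17, limma adjusted p = 7.9e-15). Over the 3006 genes tested in the same fit 62.5% were called. The difference of Ntrk2 had rank 1 of 3006 in this direction. Within batch 1, against the neuronal types without interneurons, it was 8.73. An exact permutation test over the libraries (3 against 12, two-sided) of the difference of 91.2 percentage points gave p = 0.0044, the smallest this design allows, and 0.022 adjusted over 10 such tests. This test treats single libraries as exchangeable, although the 12 come from 4 cell types, so differences between those types enter it.

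The full-length class of Ntrk2 was also measured in the astrocyte pull-downs. It was at 27.0, 26.6 and 24 TPM there, against 143.9 to 155.7 in interneurons and 80.4 to 90.1 in layer V neurons. The shorter class was at 689.2, 628.8 and 712.0 TPM in astrocytes and at most 7.67 in any neuronal library, so that the surplus of astrocytes over neurons lay in truncated mRNA. Of the Ntrk2 TPM of astrocytes, 77.8% ± 1.69 was Ntrk2-202, 9.63% ± 1.58 was Ntrk2-205 and 6.85% ± 1.01 was Ntrk2-204, while the full-length Ntrk2-201 held 3.08% ± 0.376. Ntrk2-204 has the same coding length as Ntrk2-202, 1428 bases, and Ntrk2-205 has 1476. In the neuronal types Ntrk2-201 alone held 84.9% to 93.9%. Microglia differed in their truncated forms, since Ntrk2-208, with 1398 coding bases, held 17.7% ± 2.81 of Ntrk2 TPM there and at most 0.832% in the mean of any other cell type.

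**Figure D3:**
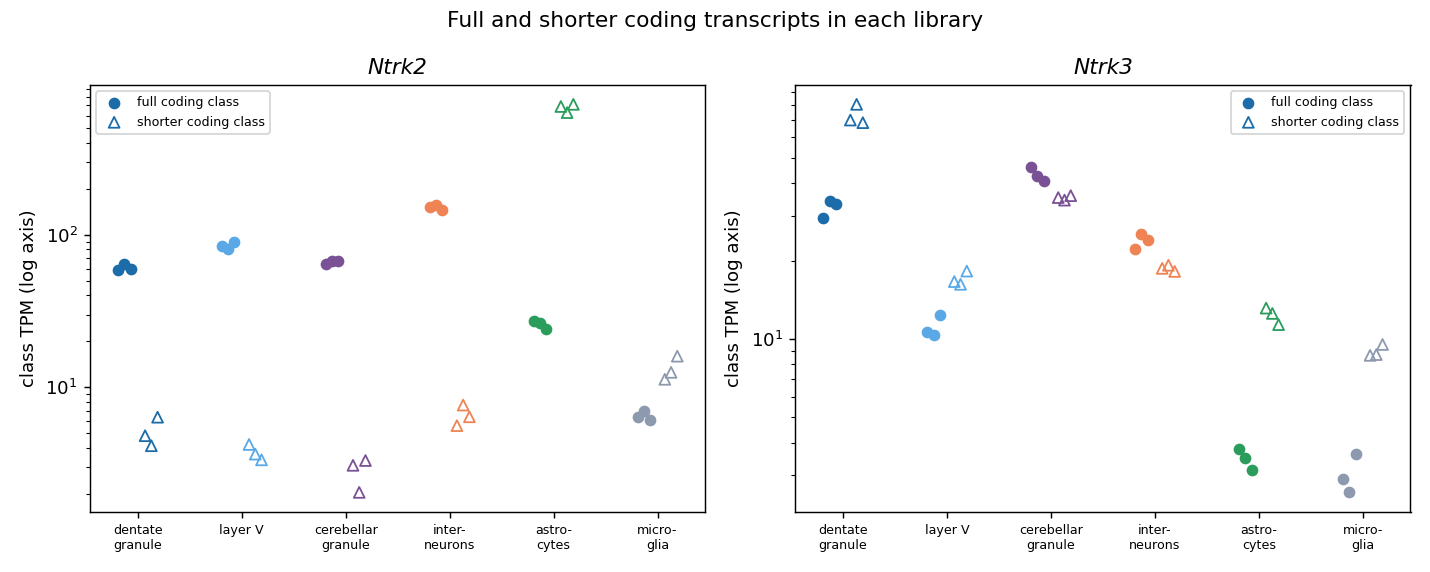
TPM of the full (filled circles) and the shorter (open triangles) coding class of Ntrk2 and Ntrk3 (y axis, log scale) in the 6 cell types (x axis), 1 point per replicate library. For Ntrk2 the classes change places between astrocytes (24 to 27.0 full, 628.8 to 712.0 shorter) and the neuronal types, while for Ntrk3 they lie closer together than for Ntrk2 in astrocytes and in the 4 neuronal types, though not in microglia.

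Levels of truncated Ntrk2 outside astrocytes were set beside those of astrocyte markers. The shorter class in the other 5 cell types was 0.757% (dentate gyrus), 0.554% (layer V), 0.417% (cerebellum), 0.971% (interneurons) and 1.96% (microglia) of its level in astrocytes. The 6 astrocyte markers were at 0.499% to 2.84%, 0.291% to 7.92%, 0.186% to 0.836%, 0.551% to 2.35% and 1.40% to 7.32% of their astrocyte level in the same order. The shorter class thus lay inside the range of the astrocyte markers in all 5 cell types, and the part of astrocyte RNA in it was not tested. Ntrk2-208 in microglia was the exception, at 3.65 TPM against 1.10 in astrocytes.

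**Figure D4:**
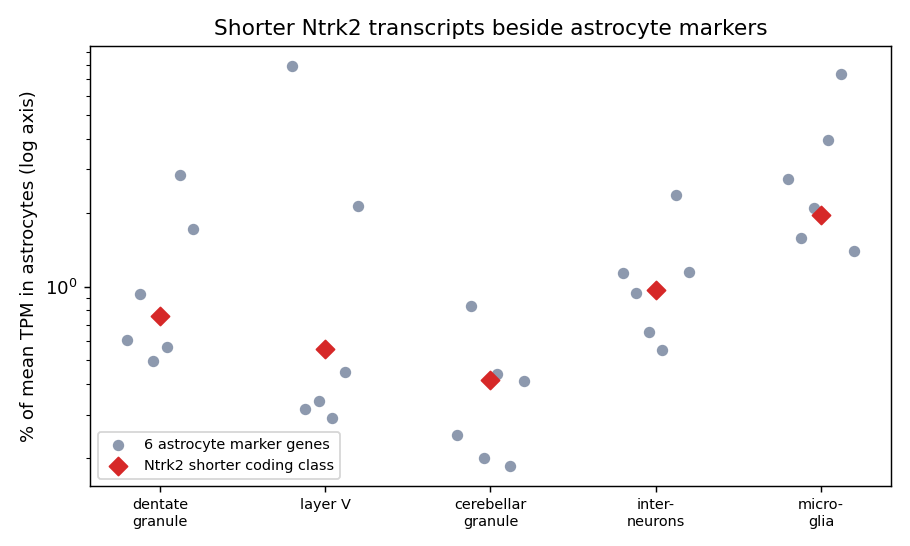
Level of the shorter Ntrk2 class and of 6 astrocyte markers in 5 cell types (x axis) as a percentage of their mean TPM in astrocytes (y axis, log scale), from means of 3 libraries. The Ntrk2 values, 0.417% to 1.96%, lie between the lowest and the highest marker of each cell type.

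Among neurons, dentate gyrus granule cells had the higher share of shorter Ntrk2 transcripts. Their log2 ratio was above that of the other 3 neuronal types by 0.90 (SE 0.17, limma adjusted p = 6.6e-04), while 41.8% of all classed genes were called there. The difference was 3.60 percentage points, with an exact permutation p of 0.0091 (two-sided, 3 against 9 libraries) and 0.023 adjusted over 10 tests. The 3 dentate gyrus libraries, at 7.61%, 6.06% and 9.66%, were all above the highest other neuronal library at 4.76%. The ratio in layer V neurons (-0.26, adjusted p = 0.24), cerebellar granule cells (-0.27, adjusted p = 0.20) and interneurons (-0.37, adjusted p = 0.10) was not called against the other neuronal types with limma. The full class alone was highest in interneurons at 150.2 ± 5.92 TPM, followed by layer V neurons at 85.1 ± 4.84.

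Ntrk3, which encodes the receptor for neurotrophin-3, followed Ntf3 in being high in granule cells. Its level was 104.5, 119.0 and 105.2 TPM in dentate gyrus granule cells, 86.7, 81.6 and 81.8 in cerebellar granule cells and 46.9, 49.4 and 47.9 in interneurons. It was 33.5, 33.6 and 38.7 TPM in layer V neurons, 19.2, 18.6 and 16.2 in astrocytes and 15.3, 14.9 and 17.4 in microglia. Only the astrocyte and microglia libraries overlapped. The log2 difference from the other 5 cell types was 1.70 in dentate gyrus granule cells (SE 0.04, edgeR adjusted p = 1.8e-16), 1.82 in cerebellar granule cells (SE 0.04, edgeR adjusted p = 3.5e-17), 0.46 in interneurons, -1.63 in astrocytes and -2.21 in microglia. The order of the granule cell types depended on the scale: on counts it was not called (-0.10, SE 0.06, edgeR adjusted p = 0.13), though cerebellum was called higher with DESeq2 (-0.14, adjusted p = 0.045), with batch as a term (-0.17, edgeR adjusted p = 0.0036) and in 13 of 18 fits that left out 1 library, while with a transcript length offset dentate gyrus was above cerebellum by 0.33 (adjusted p = 9.2e-05).

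The scale matters for Ntrk3 because its transcripts differ greatly in length, 19703 bases for the full-length Ntrk3-201 against 3977 for the truncated Ntrk3-202, and their mix differed between cell types. The shorter class held 70.5%, 70.3% and 67.3% of the classed TPM in dentate gyrus granule cells, 61.0%, 61.1% and 59.6% in layer V neurons, 43.3%, 44.6% and 46.7% in cerebellar granule cells and 45.7%, 43.1% and 43.2% in interneurons. It held 77.8%, 78.3% and 78.4% in astrocytes and 75.1%, 77.3% and 72.5% in microglia. Truncated TrkC was thus a large part of the mRNA in every cell type, and its share differed between the neuronal types. Against the other 3 neuronal types the log2 ratio was higher in dentate gyrus granule cells by 1.18 (SE 0.08, limma adjusted p = 2.5e-08) and in layer V neurons by 0.42 (SE 0.08, limma adjusted p = 7.3e-04). It was lower in cerebellar granule cells (-0.77, limma adjusted p = 1.5e-06) and in interneurons (-0.83, limma adjusted p = 1.4e-06). Of all classed genes 48.9% were called in layer V neurons, 58.2% in cerebellar granule cells and 39.7% in interneurons.

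The layer V call was lost within batch 1, where interneurons are absent from the comparison and the difference was 0.16 (limma adjusted p = 0.15). By the exact permutation test of the percent share (two-sided), dentate gyrus granule cells differed from the other neuronal types by 19.6 points (p = 0.0091, adjusted p = 0.023). The other 3 did not pass the exact permutation test after adjustment, with 7.83 points in layer V neurons (adjusted p = 0.36), -13.1 in cerebellar granule cells (adjusted p = 0.24) and -14.3 in interneurons (adjusted p = 0.091). Cerebellar granule cells and interneurons both had low shares (44.9% and 44.0%), and each was part of the group set against the other. Astrocytes exceeded the neuronal mean in the log2 ratio by 1.42 (SE 0.08, limma adjusted p = 8.2e-10), which had rank 307 of 3006 in this direction, against rank 1 for Ntrk2. The share differed by 23.5 points, with an exact permutation p of 0.0044 (two-sided, 0.022 adjusted over 10 tests).

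In TPM, the shorter Ntrk3 class was highest in dentate gyrus granule cells, at 73.0 ± 6.57, followed by cerebellar granule cells at 35.1 ± 0.696. The full class had the opposite order, with 43.2 ± 2.60 in cerebellar and 32.2 ± 2.57 in dentate granule cells, and the libraries did not overlap (40.9 to 46 against 29.2 to 34.0). Ntrk3-205, the form with the kinase insert, held 12.6% ± 1.16 of Ntrk3 TPM in interneurons, 9.98% ± 2.62 in microglia and 3.74% ± 0.658 in dentate gyrus granule cells. The classes covered 75.8% (microglia) to 95.9% (dentate gyrus) of Ntrk3 TPM. Outside them, Ntrk3-206, a coding transcript of 2592 coding bases without both untranslated ends annotated, held 2.26% to 7.24%. The decay-annotated Ntrk3-208 held 5.24% ± 1.63 in layer V neurons and the noncoding Ntrk3-220 held 6.29% ± 0.717 in astrocytes. For Ntrk2 the classes covered 97.1% to 98.5%.

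Ngfr, which encodes the low-affinity receptor p75, was scarce in all 6 cell types. Its level was 2.14, 2.68 and 1.83 TPM in interneurons, 1.38, 1.07 and 1.36 in astrocytes and 0.485, 0.308 and 0.630 in microglia. It was 0.225, 0.566 and 1.21 TPM in dentate gyrus granule cells, 0.252, 0.169 and 0.203 in layer V neurons and 0.00919, 0.0455 and 0.0201 in cerebellar granule cells. The interneuron libraries were all above and the cerebellar libraries all below the other 15, as in either direction for 11.1% and 33.7% of all genes. The log2 difference from the other 5 cell types was 2.71 in interneurons (SE 0.28, edgeR adjusted p = 1.0e-07) and 2.20 in astrocytes (SE 0.29, edgeR adjusted p = 1.7e-06). The libraries of these cell types did not overlap, but their difference was not called on counts (0.43, SE 0.36, edgeR adjusted p = 0.30), while it was on log2(TPM + 1) (0.50, limma adjusted p = 0.015). Within batch 2 the interneuron difference was 2.76. In cerebellar granule cells it was -4.95 (SE 0.58, edgeR adjusted p = 3.2e-07). These libraries held 7 estimated reads of Ngfr in all, and the ratio of interneurons to them was 107 (95% exact interval 51.6 to 267, counting error only).

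Dentate gyrus replicate 3 decided the value of its group, since without it the log2 difference went from 0.68 (edgeR adjusted p = 0.082) to -0.11 (adjusted p = 0.84). Without replicate 1 it was 1.07 and called (edgeR adjusted p = 0.0031). The lower level in layer V neurons, -1.05 (SE 0.40, edgeR adjusted p = 0.026), was lost with batch as a term over the 22 libraries (-0.59, adjusted p = 0.14). Within batch 2, which held 1 layer V library, its direction turned (0.22). The markers of oligodendrocytes moved with Ngfr across the cell types. The summed TPM of 5 such markers was 2610 to 2800 in interneurons, 768 to 982 in astrocytes and 449 to 536 in microglia. It was 279 to 400 in dentate gyrus granule cells, 212 to 221 in layer V neurons and 102 to 121 in cerebellar granule cells. This is the order of Ngfr except that microglia came before dentate gyrus granule cells, a pair whose Ngfr was not called different (0.22, edgeR adjusted p = 0.62). The part of oligodendrocyte RNA in the Ngfr values was not tested.

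Sort1, which encodes sortilin, was highest in dentate gyrus granule cells and lowest in cerebellar granule cells. Its level was 215.2, 221.7 and 213.9 TPM in the dentate gyrus, 164.5, 153.1 and 160.5 in layer V neurons and 93.7, 94.4 and 88.5 in microglia. It was 82.8, 86.7 and 85.2 TPM in interneurons, 81.5, 75.8 and 74.3 in astrocytes and 28.9, 29.5 and 27.7 in cerebellar granule cells. Both granule cell types thus lay at opposite ends for Sort1, unlike for Ntf3 and Ntrk3. The log2 difference from the other 5 cell types was 1.37 in dentate gyrus granule cells (SE 0.04, edgeR adjusted p = 5.0e-16), 0.96 in layer V neurons and -2.06 in cerebellar granule cells (SE 0.05, edgeR adjusted p = 3.5e-17). Astrocytes were not called (-0.06, SE 0.04, edgeR adjusted p = 0.21), but were called lower with batch as a term (-0.12, edgeR adjusted p = 0.0037), on log2(TPM + 1) (-0.30, limma adjusted p = 7.3e-07) and in 12 of 18 fits that left out 1 library. Interneurons and astrocytes had an order that depended on the scale, with -0.24 on counts (edgeR adjusted p = 3.8e-04) and 0.14 on log2(TPM + 1) (limma adjusted p = 0.012).

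Sort1 has a known alternative exon of 99 bases at chr3:108355472-108355570 (GRCm38, plus strand), which Sort1-203 includes and Sort1-201 skips, and whose inclusion is known to be repressed by the RNA-binding protein TDP-43. It is shown in capitals between 30 bases of each neighbouring exon.
Sort1-203: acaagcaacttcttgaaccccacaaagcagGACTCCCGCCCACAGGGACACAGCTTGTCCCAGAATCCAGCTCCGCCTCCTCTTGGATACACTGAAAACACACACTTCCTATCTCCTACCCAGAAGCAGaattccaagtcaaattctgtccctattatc
The transcript with this exon held 21.5%, 21.2% and 25.9% of the coding Sort1 TPM in astrocytes and 6.63%, 5.97% and 7.66% in layer V neurons. It held 14.0% ± 1.30 in dentate gyrus granule cells, 14.2% ± 1.64 in cerebellar granule cells, 11% ± 0.936 in microglia and 11.1%, 9.48% and 9.54% in interneurons. The astrocyte libraries were all above and the layer V libraries all below the libraries of the other 4 cell types, a description without a test.

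Layer V neurons also stood apart in Sort1-202, a transcript annotated as a retained intron. It held 30.1%, 38.1% and 35.4% of Sort1 TPM there, 10.8% ± 3.02 in microglia and 0.50% to 3.47% in the mean of the other 4 cell types. Retained-intron transcripts of all genes together held 2.73% of TPM in layer V neurons, against 2.68% to 2.80% in the other neurons and astrocytes and 4.64% in microglia. The Sort1 value in layer V neurons was therefore not accompanied by more retained-intron RNA over all genes. The level of the coding transcripts alone was 89.1 to 107.4 TPM for Sort1-201 in layer V neurons and 180.4 to 187.3 in dentate gyrus granule cells.

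**Figure D5:**
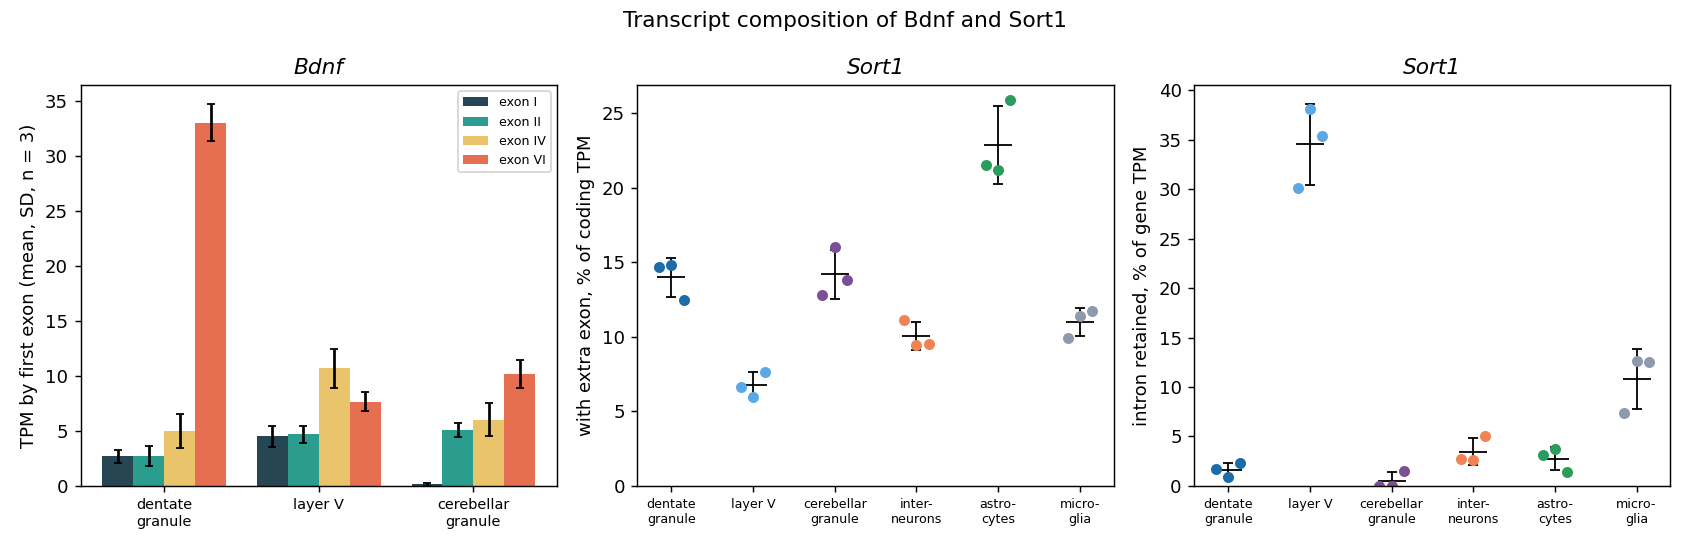
Left, TPM of Bdnf transcripts by first exon (y axis, bars from 0 for the mean and error bars for the SD of 3 libraries) in the 3 excitatory cell types. Middle and right, Sort1-203 as a percentage of coding Sort1 TPM and Sort1-202 as a percentage of all Sort1 TPM (y axes) in the 6 cell types, with 1 point per library, a line at the mean and error bars for the SD. Exon VI stands out in dentate gyrus granule cells at 33.1 TPM, Sort1-203 is highest in astrocytes and Sort1-202 in layer V neurons.

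The low levels in glia were set beside neuronal mRNA in the same pull-downs. Relative to layer V neurons, 4 pan-neuronal markers were at 10.3% to 18% in astrocytes and 3.91% to 14.0% in microglia, and 2 markers of excitatory neurons were at 17.1% to 18.6% and 9.04% to 9.85%. Bdnf was at 14.1% and 6.37% of its layer V level, and Ntf3 at 15.7% and 7.37%, within these ranges. The first exons of Bdnf differed, with exon VI at 59.5% ± 3.62 of Bdnf TPM in astrocytes against 27.6% ± 4.11 in layer V neurons. Higher than all 6 neuronal markers was Sort1 at 48.4% and 57.8%. So were the shorter Ntrk3 class at 72.4% and 52.5% and the full Ntrk3 class at 31.1% and 27.1%. Layer V neurons had the lowest mean level of both Ntrk3 classes among the 4 neuronal types. The full class was at 11.15 TPM there, against 23.96 in interneurons, 32.17 in dentate gyrus and 43.22 in cerebellar granule cells. The Ntrk3 percentages therefore hold against layer V neurons only, and Ntrk3 against the markers of the other neuronal types was not tested. The full Ntrk2 class was at 30.4% in astrocytes, above these markers, and at 7.67% in microglia, inside their range. The astrocyte value depended on the neurons it was set against. It was 39.2% of the cerebellar level, above the 4 pan-neuronal markers at 5.31% to 20.3%, but 17.2% of the interneuron level, where these markers were at 9.97% to 31.7%, and 42.5% of the dentate gyrus level, where they were at 12.5% to 59.2%. The part of neuronal RNA in the glial values was not tested.

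Of the remaining ligands of the family, Ntf5 was at most 0.315 TPM in the mean of any cell type.

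Of 9 proteases that process neurotrophin precursors, 8 were tested and Mmp7 was at 0 in every library. In interneurons 4 were called higher and 4 lower, in layer V neurons 3 and 4, in dentate gyrus granule cells 3 and 2, in cerebellar granule cells 5 and 3, in astrocytes 1 and 6 and in microglia 3 and 5. Of all genes, 35.1% were higher and 32.2% lower in interneurons, 37.8% and 35.4% in layer V neurons and 35.3% and 31.4% in dentate gyrus. In cerebellar granule cells these shares were 36% and 46.1%, in astrocytes 40.2% and 33.0% and in microglia 43.4% and 37.6%. The median log2 difference of the 8 was 0.0157 in interneurons, -0.20 in layer V neurons and 0.12 in dentate gyrus granule cells, where all genes had -0.02, -0.02 and -0.01, and 0.55 in cerebellar granule cells, -0.35 in astrocytes and -0.81 in microglia, where all genes had -0.27, 0.08 and 0.09. The 7930 genes at a mean of 5 TPM or more in every cell type had other medians. In the same order of cell types these were -0.008, 0.051, 0.058, 0.242, -0.18 and -0.249. The prohormone convertase Pcsk2 was highest in layer V neurons at 229 ± 9.86 TPM (log2 difference 2.04, edgeR adjusted p = 4.7e-17). Pcsk6 was at 38.0 ± 2.03 TPM in astrocytes, the only 1 of the 8 called higher there (5.33, edgeR adjusted p = 1.7e-19), and furin was highest in microglia at 31.7 ± 1.49. Tissue plasminogen activator, Plat, was highest in cerebellar granule cells at 41.9 ± 3.14.

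Of 10 genes for sortilin relatives and p75 partners, 8 were called higher and 2 lower in dentate gyrus granule cells and in layer V neurons alike, against 2 higher and 8 lower in microglia. Of all genes, 35.3% were higher and 31.4% lower in dentate gyrus, 37.8% and 35.4% in layer V neurons and 43.4% and 37.6% in microglia. The list had a median log2 difference of 0.89 in dentate gyrus granule cells, 1.16 in layer V neurons and -1.38 in microglia, where the medians of all genes were -0.01, -0.02 and 0.09. Over the 7930 genes at a mean of 5 TPM or more in every cell type, they were 0.058, 0.051 and -0.249. Sorl1, a relative of sortilin, was highest in cerebellar granule cells at 217 ± 7.71 TPM (2.28, edgeR adjusted p = 8.0e-17), where Sort1 was lowest. Lingo1, a partner of p75, was at 424 ± 13 TPM in layer V neurons (3.02, edgeR adjusted p = 1.0e-17). Bex3 and Maged1, which bind the intracellular part of p75, were highest in interneurons at 643 ± 11.2 and 620 ± 16.8 TPM. In interneurons 5 of the 10 were called higher and 5 lower, in cerebellar granule cells 5 and 4, and in astrocytes 4 and 5. The shares of all genes in the same order were 35.1% and 32.2%, 36% and 46.1%, and 40.2% and 33.0%.

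Of 17 Trk adaptors and docking proteins, 12 were called higher in cerebellar granule cells and 11 in interneurons, with 5 lower in each. Of all genes, 36% were higher and 46.1% lower in cerebellar granule cells, and 35.1% and 32.2% in interneurons. The median log2 difference of the list was 0.69 in cerebellar granule cells and 0.29 in interneurons, where all genes had -0.27 and -0.02. The list median was -0.64 in microglia, with 6 higher and 11 lower, where all genes had 0.09 and 43.4% of them were higher and 37.6% lower. The 7930 genes at a mean of 5 TPM or more in every cell type had other medians. These were 0.242 in cerebellar granule cells, -0.008 in interneurons and -0.249 in microglia. In dentate gyrus granule cells 8 were higher and 7 lower, in layer V neurons 5 and 9, and in astrocytes 9 and 5. Among all genes the shares in the same order were 35.3% and 31.4%, 37.8% and 35.4%, and 40.2% and 33.0%. Grb2 was highest in cerebellar granule cells at 311 ± 7.16 TPM and Ptpn11 at 141 ± 2.78, both parts of the pathway from receptor to Ras. Kidins220, a scaffold that binds Trk receptors, was highest in interneurons at 178 ± 6.13 TPM.

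Of 9 genes known to control Bdnf transcription or to follow neuronal activity, 7 were called higher and 1 lower in layer V neurons, where 37.8% of all genes were higher and 35.4% lower. Their median log2 difference was 1.25 there, against -0.02 for all genes. There Mef2c was at 430 ± 12.1 TPM (2.53, edgeR adjusted p = 1.9e-17), Vgf at 411 ± 16.4 (3.15, edgeR adjusted p = 1.1e-15) and Egr1 at 251 ± 52.4 (2.81, edgeR adjusted p = 7.7e-12). Layer V neurons had the highest share of Bdnf exon IV of the 3 excitatory cell types. Crtc1, a coactivator of CREB, was highest in dentate gyrus granule cells at 166 ± 7.55 TPM (1.96, edgeR adjusted p = 3.8e-18). In dentate gyrus granule cells 4 of the 9 were higher and 3 lower, in cerebellar granule cells 3 and 4, in interneurons 3 and 6, and in astrocytes and microglia 3 and 5. Of all genes, 35.3% were higher and 31.4% lower in dentate gyrus, 36% and 46.1% in cerebellum and 35.1% and 32.2% in interneurons. In astrocytes these shares were 40.2% and 33.0%, and in microglia 43.4% and 37.6%.

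The genes whose levels were most like a member's were found by the Pearson correlation of log2(TPM + 1) over the 18 libraries among 14157 genes, a description in which the 3 libraries of a cell type are not independent. For Bdnf they were Rtn4r (r = 0.984), Nrn1, Neurod2, Slc17a7 and Bhlhe22 (r = 0.956). For Ntf3 they were Pip5k1b (r = 0.991), Abce1, Ints5, Akap11 and its receptor Ntrk3 (r = 0.987). The 5 of Ntrk3 were Akap11, Fbxl18 (r = 0.991), Tmem108, Tmem231 and Pip5k1b (r = 0.989), so that Akap11 and Pip5k1b stood on both lists. For Ntrk2 they included Pink1 (r = 0.986), Tspan3, Mvk and Bpgm (r = 0.981), none of which was among the 6 astrocyte markers. For Sort1 they were Icam5 (r = 0.994), Rin1, Rgs14, Ptk2b and 2900026A02Rik (r = 0.989). Those of Ngfr included Mbp (r = 0.952), Sox2ot and Fam210b, among which Mbp encodes a myelin protein of oligodendrocytes.

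For the 4 replicates sequenced in both batches, the TPM of batch 2 was 0.945 to 1.15 times that of batch 1 over the 5 members other than Ngfr. For Ngfr the ratio ran from 0.448 to 1.61. The differences between cell types in Bdnf, Ntf3 and Ntrk2 given above are mostly many times larger than this, and small differences below about 0.2 on the log2 scale, such as those of Ntrk2 and Ntrk3 in layer V neurons (0.14 and -0.13), are not. The former turned to -0.19 on log2(TPM + 1), and the latter was not called after upper-quartile normalization (-0.09).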

How the data were processed

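RiboTag mRNA of 6 cell types was measured in 22 libraries. Per the submitters' processing notes and the study's methods, the authors cut adapters off with cutadapt 3.5 and ran kallisto 0.46.2 on the reads against GENCODE M24 transcripts. The deposited tables give estimated counts and TPM per transcript, per the file headers. TPM is scaled by length and library total, so a high gene lowers the rest, and estimated counts split shared reads among transcripts. The authors tested with sleuth, which was not run here.

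Transcript values were summed by gene. Estimated counts were rounded and tested with edgeR 4.0.16 (TMM, filterByExpr, quasi-likelihood), each cell type against the mean of the other 5 and neighbours in the order of mean TPM, over 20524 genes. Class ratios, log2 of (shorter + 0.5) over (full + 0.5) TPM, were tested with limma 3.58.1 over 3006 genes. Coding lengths and exons came from GENCODE M21, which held 140930 of the 142552 transcripts. P-values were adjusted by Benjamini-Hochberg and called at 0.05. The 4 replicates sequenced in both batches entered once, with their batch 1 library. Labels name separate replicates, and the spread between them is what the edgeR and limma p-values measure. Intervals cover counting error only.

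Named were the 6 members, their transcripts at 5% or more of the gene's TPM in a cell type, up to 4 genes of each pathway list, those with the highest mean TPM, and the 5 genes most like each member. Some genes that this rule takes are not reported here. The Ntf3 transcripts were added after their values were seen. Members and lists were chosen with earlier results of these data known. On simulated counts, in the interneuron comparison over 20524 genes, edgeR recovered 91 of 100 genes changed by 0.5 and 100 of 100 changed by 1 on the log2 scale, with 3 false calls. On simulated class ratios in astrocytes, limma recovered 195 of 200 with 10 false calls among 3000 genes. In both simulations unchanged genes had the same mean in all cell types, and the spread was set equal for all genes. Only genes with a minimum mean count were changed in the count simulation. These rates therefore do not carry over to the contrasts above, where most genes differ, or to scarce genes such as Ngfr. Alternatives were DESeq2 1.42.0, other normalizations and filters, a transcript length offset, limma on TPM, batch, the replicate block and leaving out each library.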

Additional observations from a re-analysis of the deposited data

How the results depend on the processing

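Of 87 results, 55 kept their direction and their side of the threshold in all alternatives. Of 2556 alternative values, 2433 did, 56 lost a call, 42 gained one, 15 changed sign and 10 counts moved by over 1.5 times. The cause was not tested unless stated. All values are log2 differences, called by edgeR or, for TPM and class ratios, limma. Within batch 1, which held no interneurons or microglia, each cell type was set against the remaining types only. Within batch 2, dentate gyrus, layer V, cerebellum and astrocytes had 1 library each. Against the other cell types in each fit, Ntrk2 in layer V neurons became -0.0401 with the transcript length offset, -0.19 on log2(TPM + 1) and -0.18 on log2(TPM + 0.1). It was -0.47 within batch 1 and 0.19, no longer called, within batch 2. Ntrk3 in layer V neurons was no longer called with upper-quartile normalization (-0.0851), no low-count filter (-0.11), the length offset (-0.10), batch 2 libraries for the resequenced replicates (-0.0907) and within batch 2 (-0.16), nor was Ntrk3 in interneurons with the length offset (0.0623). Ntf3 in layer V neurons was -0.25 and not called within batch 2. Ngfr in dentate gyrus granule cells was -0.0481 on log2(TPM + 1), and called at 0.94 with batch as a term, 1.56 within batch 1 and 1.44 within batch 2. Ngfr in layer V neurons lost its call with batch 2 libraries (-0.54), batch as a term (-0.59) and within batch 1 (-0.32), and turned to 0.22 within batch 2. Ngfr in microglia turned to -0.22 on log2(TPM + 1) and -0.10 on log2(TPM + 0.1). Sort1 in astrocytes was called with the length offset (-0.09), on both TPM scales (-0.30 each) and with batch as a term (-0.12). Sort1 in microglia lost its call with no filter (0.0527), on log2(TPM + 1) (0.0027), on log2(TPM + 0.1) (0.0068), with batch 2 libraries (0.069) and within batch 2 (0.0822).

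Between neighbours, Ntrk3 of dentate gyrus over cerebellum was called with DESeq2 (-0.14), no filter (-0.17), the stricter filter (-0.16), batch 2 libraries (-0.15), batch as a term (-0.17) and within batch 1 (-0.17), and turned to 0.33 with the length offset, 0.39 on log2(TPM + 1) and 0.39 on log2(TPM + 0.1). Sort1 of interneurons over astrocytes turned to 0.14 on both TPM scales and was -0.16 and not called within batch 2. Over 7930 genes the median shift from edgeR to TPM was 0.36 for this pair, and 0.134, -0.134, 0.061, 0.225, -0.208 and -0.093 for the contrasts of dentate gyrus, layer V, cerebellum, interneurons, astrocytes and microglia. Calls were lost on log2(TPM + 1) for Ntf3 of astrocytes over microglia (0.28), Ntrk2 of cerebellum over dentate gyrus (0.0792), Ntrk3 of astrocytes over microglia (0.17), Ngfr of microglia over layer V (0.28) and Ngfr of layer V over cerebellum (0.24), and on log2(TPM + 0.1) for that Ntrk2 pair (0.0802), Ntrk3 of astrocytes over microglia (0.18) and Ngfr of microglia over layer V (0.87). Ngfr of interneurons over astrocytes gained its call on log2(TPM + 1) (0.50). Ntrk2 of cerebellum over dentate gyrus was also lost with upper-quartile normalization (0.0915) and the length offset (0.15), as was Ntrk3 of interneurons over layer V with the length offset (0.13). Within batch 2, dentate gyrus, layer V, cerebellum and astrocytes had 1 library each, so the spread came from interneurons and microglia alone. In that fit, calls were lost for Bdnf of dentate gyrus over layer V (0.38), Ntf3 of dentate gyrus over cerebellum (0.49) and Ntf3 of astrocytes over microglia (0.9994). They were also lost for Ngfr of astrocytes over dentate gyrus (0.19), Ngfr of microglia over layer V (0.17) and Sort1 of dentate gyrus over layer V (0.20). Ngfr of microglia over layer V was also lost with batch 2 libraries (0.76) and batch as a term (0.64).

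Genes called for the class ratio numbered 1878, 1256, 1471, 1748 and 1192 in astrocytes, dentate gyrus, layer V, cerebellum and interneurons, 1068, 597, 735, 1034 and 498 with estimated counts, and 3968, 2556, 3063, 3708 and 2192 when transcripts lacking an untranslated end were also classed, which tests more genes. The Ntrk2 ratio in interneurons was called with a pseudocount of 1 TPM (-0.43). The Ntrk3 ratio lost its call in layer V neurons within batch 1 (0.16), where interneurons are absent. It also lost its call by exact permutation of the share in layer V neurons (7.83 points), cerebellum (-13.1) and interneurons (-14.3).

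Leaving out 1 library at a time changed a call or sign in 12 results. They ranged from -0.61 to -0.33 for Ntf3, 0.11 to 0.18 for Ntrk2, -0.20 to -0.0784 for Ntrk3 and -1.21 to -0.90 for Ngfr in layer V neurons, from -0.11 to 1.07 for Ngfr in dentate gyrus, from -0.14 to -0.048 for Sort1 in astrocytes and 0.0616 to 0.14 in microglia. Between neighbours they ranged from 0.84 to 1.495 for Ntf3 of astrocytes over microglia, -0.20 to -0.10 for Ntrk3 of dentate gyrus over cerebellum, -0.55 to 0.62 for Ngfr of dentate gyrus over microglia and 0.90 to 1.44 for Ngfr of microglia over layer V, and from -0.46 to -0.27 for the Ntrk2 ratio in interneurons. Ngfr rested on few libraries: without dentate gyrus replicate 3, astrocytes over dentate gyrus was 2.00 and dentate gyrus over microglia -0.55, and without cerebellar replicate 2, the cerebellar contrast was -5.56 and layer V over cerebellum 3.87, all called by edgeR except that of dentate gyrus over microglia. The cerebellar libraries held 7 estimated reads of Ngfr in all, which limits its precision there. With the replicate block all 87 results kept direction and call, for example Bdnf in dentate gyrus at 2.90. Samples share the number and in part the sex. Among the 18 libraries, replicate 1 was labelled female except in interneurons, a mixed pool, and replicate 3 male in all cell types. Of 45 pairs with the same number, 23 had deviations correlated over 0.1 (median 0.10), against 14 of 90 other pairs (median -0.04). The part of sex in this was not tested.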
